A study of Homo sapiens with 8 samples.

Results

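The 9 genes described here were 3 trefoil factors (TFF1, TFF2 and TFF3) and 6 mucins (MUC1, MUC2, MUC5AC, MUC5B, MUC13 and MUC17), chosen by gene family from the 60649 gene identifiers measured. RNA-seq was performed in HCT116, a human colorectal carcinoma cell line, and in UF1hypo, a single clone of HCT116 (UHRF1+/−-7) from which exon 4 of a single UHRF1 allele had been removed. Both lines had been stably transduced with a scrambled (shScr) or a UHRF1-directed (shUHRF1) hairpin in a lentiviral vector under puromycin selection, with 2 libraries in each of the 4 groups. Both UF1hypo groups carried the allele deletion, and the parental line without a hairpin is not analysed here. The labels do not say whether the 2 libraries of a group came from separate cultures, so p-values measure only the spread between these libraries, which may be technical.

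Trefoil factors are small, cysteine-rich peptides that mucus-secreting epithelial cells release together with mucins and that are known for their part in mucosal repair. Mucins are long glycoproteins whose repeated serine- and threonine-rich stretches carry O-linked sugars. Gel-forming mucins (MUC2, MUC5AC and MUC5B) are secreted and build the mucus layer, whereas transmembrane mucins (MUC1, MUC13 and MUC17) stay anchored in the apical membrane. In the healthy gut TFF1, TFF2 and MUC5AC are best known from the stomach, and TFF3 and MUC2 from goblet cells of the intestine. UHRF1 is the protein that brings the maintenance methyltransferase DNMT1 to hemimethylated DNA, which is why the CG dinucleotides of these genes' promoters are of interest.

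Promoter sequences of 4 members (MUC1, MUC2, MUC13 and MUC17) were found in RefSeq on GRCh38.p14, each running from 250 bases before the start to the first 30 bases of the transcript. TFF1, TFF2, TFF3, MUC5AC and MUC5B had no entry in that table. The promoters of MUC1, MUC2 and MUC17 are shown because they represent a mucin expressed in both lines, a gel-forming mucin near the detection limit, and a mucin listed at 0 outside UF1hypo shUHRF1. They lie at chr1:155192886-155193165 on the minus strand, chr11:1074624-1074903 on the plus strand and chr7:101019831-101020110 on the plus strand. Each is printed 5′ to 3′ along its gene, and capitals mark CG dinucleotides.
MUC1: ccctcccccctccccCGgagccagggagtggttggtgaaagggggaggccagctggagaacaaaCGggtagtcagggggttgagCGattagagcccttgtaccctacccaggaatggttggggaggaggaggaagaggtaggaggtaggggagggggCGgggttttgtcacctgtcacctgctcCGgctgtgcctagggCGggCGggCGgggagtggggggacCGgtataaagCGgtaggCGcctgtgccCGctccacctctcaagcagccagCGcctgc
MUC2: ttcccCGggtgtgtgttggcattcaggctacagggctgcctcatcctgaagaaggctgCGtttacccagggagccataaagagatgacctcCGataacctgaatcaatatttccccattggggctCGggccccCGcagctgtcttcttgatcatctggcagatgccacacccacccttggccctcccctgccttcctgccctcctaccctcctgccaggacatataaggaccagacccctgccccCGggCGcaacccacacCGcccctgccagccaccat
MUC17: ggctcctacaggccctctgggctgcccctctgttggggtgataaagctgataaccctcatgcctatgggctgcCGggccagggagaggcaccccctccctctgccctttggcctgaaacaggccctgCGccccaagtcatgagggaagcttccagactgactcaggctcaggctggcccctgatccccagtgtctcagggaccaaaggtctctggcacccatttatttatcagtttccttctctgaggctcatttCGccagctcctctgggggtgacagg

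The 3 sequences differed in their number of CG dinucleotides. The MUC1 promoter held 13 of them at a G+C content of 66.4%, the same number as the median of 13.0 over 35116 promoters of 280 bases. The MUC2 promoter held 8 and the MUC17 promoter held 3, and 40.9% and 19.9% of all promoters had fewer. The MUC13 promoter held 5, but its RefSeq start lay 19068 bases from the end of the gene in the files, so it is not printed. The motif TATAAA, searched on the strand of the gene, began 24 bases before the MUC1 start and was not found in the other 3 promoters; 7.11% of all promoters held it. The motif GGGCGG, which contains a CG and was searched on both strands with overlaps allowed, occurred 4 times in MUC1 and 1 time in MUC2, and 44.1% of all promoters held at least 1 copy. The exact hexamer AGATAA was found on neither strand of the 4 promoters and was present in 9.95% of all promoters. Other hexamers that hold GATA, such as TGATAA in the printed MUC17 sequence, were not counted, so a lack of GATA sites was not tested. Near matches to TATAAA, such as TATAAG in the printed MUC2 sequence, were not counted either.

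Expression is given as TPM, a transcript abundance scaled for transcript length and library size, so that levels of different genes may be set side by side. The libraries held 5.42 to 7.83 Gb of aligned bases. The UF1hypo shUHRF1 libraries had 28056 and 28412 gene records above 0, against 23393 to 26016 in the others, so they detected more genes in general. Replicates correlated at r of 0.991 to 0.992 across 13781 genes in 3 groups and at 0.956 in UF1hypo shUHRF1, where the difference between the 2 libraries rose with the G+C content of the transcript (Spearman's rho of 0.814, across genes). In UF1hypo shScr the difference between replicates followed G+C content in the same way, with the opposite sign (rho of -0.508), whereas in the HCT116 groups rho was -0.042 and -0.068. The targeted gene UHRF1 was at 87.5 and 98.4 TPM in HCT116 cells with shScr and at 31.7 and 32.7 with shUHRF1. In UF1hypo it was at 47.3 and 50.6 TPM with shScr and at 34.1 and 21.1 with shUHRF1. On the log2(TPM + 1) scale UHRF1 differed by -1.5 in HCT116 (SE 0.222, limma, adjusted p = 0.0564) and by -0.84 in UF1hypo (SE 0.221, limma, adjusted p = 0.0406). Neither change passed both thresholds used here, an adjusted p below 0.05 and an absolute difference above 1. Colonic markers EPCAM, KRT8, KRT18, KRT19 and CDX2 were expressed in all 4 groups, while CDH17, LGALS4, GPA33, CEACAM5, VIL1 and CDX1 were below 1 TPM in every library.

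Most members were silent or below 1 TPM in most libraries. MUC1 was the only one of the 9 with a TPM above 1 in an HCT116 library, and the only one above 1 in UF1hypo shScr. In UF1hypo shUHRF1 a further 3 (TFF2, TFF3 and MUC5AC) passed 1 TPM in at least 1 library, 5 members passed it nowhere, and TFF1 was listed at 0 in every library. The summed TPM of the 9 genes was 2.97 to 4.9 over the 4 HCT116 libraries, 2.33 and 3.41 in the UF1hypo controls, and 26.0 and 15.9 after knockdown in UF1hypo. MUC1 supplied 81.1 to 96.9% of that sum in the 6 libraries outside UF1hypo shUHRF1 and 40.5 and 37.9% in the 2 UF1hypo shUHRF1 libraries.

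For 8 of the 9 members, all but TFF1, the lower of the 2 UF1hypo shUHRF1 values exceeded the higher UF1hypo shScr value, and for the same 8 it also exceeded the values of all 6 other libraries. Among the protein-coding genes with any TPM above 0 the same held for 31.4% against UF1hypo shScr and for 23% against all 6 others. In bulk RNA, a few cells with much of a transcript and many cells with little of it cannot be told apart, and neither can fewer cells of a type and less RNA per cell.

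**Figure D1:**
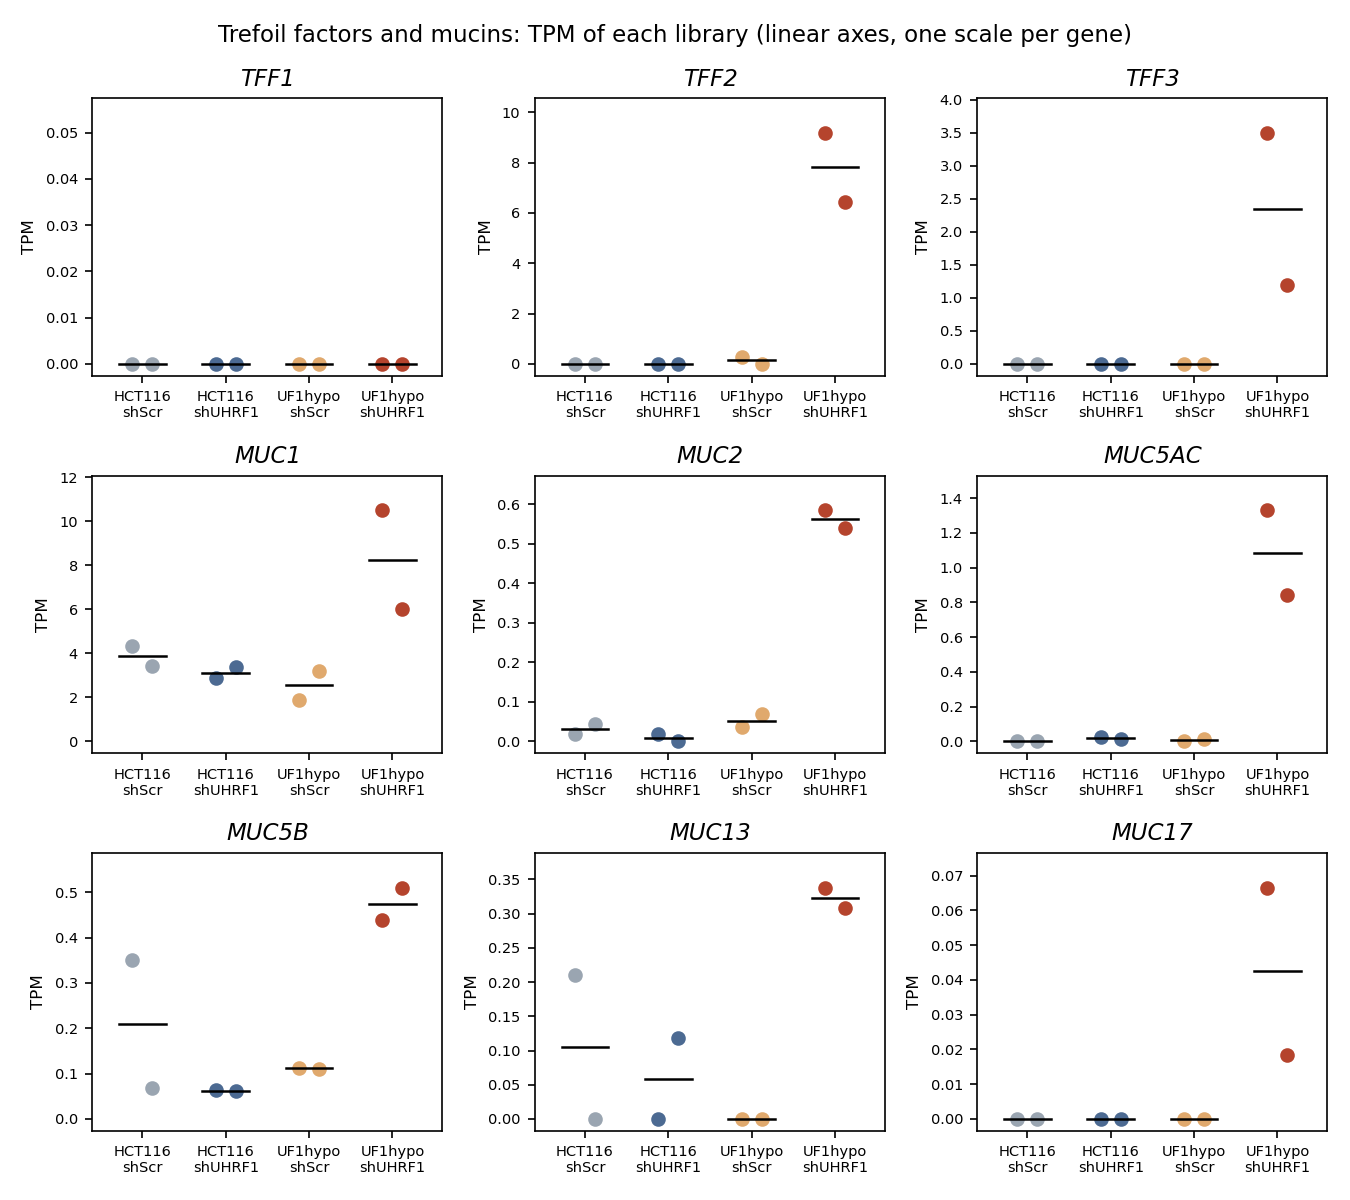
TPM of the 9 members, each panel with its own linear scale; points are libraries, bars are means of the 2 libraries of each group. The UF1hypo shUHRF1 points lie above all others in 8 panels, with MUC1 at 10.5 and 6.02 and TFF2 at 9.19 and 6.44, and TFF1 is at 0 throughout.

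The 3 trefoil genes lie side by side on the minus strand of chromosome 21, in the files' GRCh38 coordinates. TFF2 (ENSG00000160181.9; chr21:42346357-42350997), the spasmolytic polypeptide of the stomach, was listed at 0 in all 4 HCT116 libraries, at 0.286 and 0 TPM in UF1hypo shScr, and at 9.19 and 6.44 TPM in UF1hypo shUHRF1. The groups did not overlap, and the 2 knockdown libraries were the only ones with TFF2 above 1 TPM. In these libraries 56.0 and 48.6% of protein-coding genes had a lower TPM than TFF2, and its transcript was covered 25.7 and 16.7 times per base, against 0.858 and 0 times in UF1hypo shScr. The mean rose from 0.143 ± 0.202 to 7.82 ± 1.94 TPM (SD, n = 2 each). On the scale of log2(TPM + 1), which understates changes of low genes, TFF2 rose by 2.94 (SE 0.231, 95% interval 2.41 to 3.47) with an adjusted p of 0.000123 by limma.

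TFF3 (ENSG00000160180.17; chr21:42311667-42315409), the trefoil factor of intestinal goblet cells, was listed at 0 in the 6 libraries outside UF1hypo shUHRF1 and at 3.5 and 1.2 TPM in the latter. The gap between its 2 knockdown libraries was wider than the distance of the lower of them from the controls, with a mean of 2.35 ± 1.63 TPM (SD, n = 2). TFF3 rose by 1.65 on the log2(TPM + 1) scale (SE 0.31, 95% interval 0.95 to 2.36; limma, adjusted p = 0.00985). Without UF1hypo shScr replicate 1 or 2 the adjusted p of TFF3 in limma was 0.0634 or 0.0568, so the call needed both control libraries. TFF2 and TFF3 are on the study's own list of genes picked in these libraries, so their direction is no independent evidence.

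TFF1 (ENSG00000160182.3; chr21:42362282-42366535), the trefoil factor of gastric surface cells, was listed at 0 in all 8 libraries and was not tested. It lies 11.3 kb from TFF2, and TFF3 lies 30.9 kb from TFF2 on the other side. Within this cluster, the summed trefoil TPM was 12.7 and 7.64 in UF1hypo shUHRF1, 0.286 and 0 in the UF1hypo controls, and 0 in each HCT116 library.

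Of the mucins, MUC1 (ENSG00000185499.16; chr1:155185824-155192916, minus strand), the widely expressed transmembrane mucin, was the only one detected at more than 1 TPM in every library. In HCT116 its TPM was 4.32 and 3.44 with shScr and 2.87 and 3.39 with shUHRF1. In UF1hypo it was 1.89 and 3.22 with shScr and 10.5 and 6.02 with shUHRF1. Both knockdown libraries of UF1hypo were above the other 6, among which the HCT116 shScr pair was highest and the other 2 groups overlapped. MUC1 rose in UF1hypo from 2.56 ± 0.942 to 8.26 ± 3.17 TPM (SD, n = 2 each), a 3.23-fold ratio of means, or 1.36 on the log2(TPM + 1) scale (SE 0.298, 95% interval 0.68 to 2.05; limma, adjusted p = 0.0196).

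The size of the MUC1 change depended on the deposited measure. Its read coverage per aligned gigabase was 0.451 and 0.692 in the UF1hypo controls and 1.3 and 0.856 after knockdown, a 1.89-fold ratio of means. The fit on coverage used another scale, log2 of coverage brought to the same total in every library, plus 1. That fit gave 0.80 for MUC1 (SE 0.269, 95% interval 0.16 to 1.44, limma, adjusted p = 0.105), which is no call. Without UF1hypo shScr replicate 1 the MUC1 difference was 1.09 with an adjusted p of 0.166 by limma. A gene annotated as ENSG00000273088 overlaps MUC1 on the same strand and was at a mean of 0 in UF1hypo shScr and 0.143 TPM in UF1hypo shUHRF1.

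The gel-forming mucins MUC2, MUC5AC and MUC5B lie in a row on the plus strand of chromosome 11. MUC5AC (ENSG00000215182.8; chr11:1157953-1201138), the mucin of the gastric surface and the airways, was listed at 0 in both HCT116 shScr libraries and at 0.0228 and 0.0131 TPM with shUHRF1 in that line. In UF1hypo it was at 0.00517 and 0.0132 TPM with shScr and at 1.33 and 0.841 with shUHRF1. The last pair was separated from the other 6 libraries, among which the highest was 0.0228. The mean of MUC5AC rose from 0.00919 ± 0.00569 to 1.09 ± 0.347 TPM (SD, n = 2 each), a ratio of 118 that rests on control coverages of 0.0172 and 0.0418 reads per base. On the log2(TPM + 1) scale this was 1.04 (SE 0.197, 95% interval 0.59 to 1.49; limma, adjusted p = 0.0106), just past the threshold of 1. Removing UF1hypo shScr replicate 1 or 2 brought the adjusted p of MUC5AC in limma to 0.0804 or 0.0663, and a correction for G+C content and length brought its difference to 0.71.

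MUC2 (ENSG00000198788.9; chr11:1074875-1110511), the main mucin of the colonic mucus layer, stayed below 1 TPM in every library and so was left out of the main test. In HCT116 it was at 0.0201 and 0.0436 TPM with shScr and 0.0189 and 0 with shUHRF1, and in UF1hypo at 0.037 and 0.0684 with shScr and 0.585 and 0.539 with shUHRF1. The 2 knockdown libraries of UF1hypo were close to each other and above the rest, with means of 0.0527 ± 0.0222 and 0.562 ± 0.033 TPM in UF1hypo shScr and shUHRF1 (SD, n = 2 each), a ratio of 10.7. In a fit without the TPM filter MUC2 differed by 0.57 on the log2(TPM + 1) scale (SE 0.0542; limma, adjusted p = 0.00145), below the fold threshold that a call requires.

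MUC5B (ENSG00000117983.17; chr11:1223066-1262172), a mucin of airway and salivary glands, was in HCT116 at 0.35 and 0.0675 TPM with shScr and at 0.0634 and 0.0612 with shUHRF1. In UF1hypo it was at 0.113 and 0.11 TPM with shScr and at 0.438 and 0.51 with shUHRF1. The UF1hypo groups did not overlap, but HCT116 shScr replicate 1 came close to the UF1hypo knockdown level by TPM. By coverage per aligned gigabase that library was at 0.0282, beside 0.0297 in its replicate, while UF1hypo shUHRF1 was at 0.175 and 0.065. Without the TPM filter the MUC5B difference in UF1hypo was 0.41 (SE 0.11; limma, adjusted p = 0.0656), which did not pass the test.

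The remaining transmembrane mucins were at the edge of detection. MUC13 (ENSG00000173702.7; chr3:124905442-124953819, minus strand), a mucin of the intestinal brush border, was in HCT116 at 0.21 and 0 TPM with shScr and at 0 and 0.118 with shUHRF1. In UF1hypo it was at 0 in both shScr libraries and at 0.338 and 0.309 TPM with shUHRF1. It was detected in 1 library of each HCT116 group and in both UF1hypo knockdown libraries, and its difference there without the TPM filter was 0.40 (SE 0.102; limma, adjusted p = 0.0522). MUC17 (ENSG00000169876.14; chr7:101020072-101058859, plus strand), a mucin of the small-intestinal glycocalyx, was listed at 0 in 6 libraries and at 0.0665 and 0.0184 TPM in UF1hypo shUHRF1. Its difference was 0.06 (SE 0.0469, limma without the TPM filter, adjusted p = 0.474), so only its presence in the 2 libraries can be described. Those 2 libraries also had more gene records above 0 than the others.

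Ordered by mean TPM in UF1hypo shUHRF1, MUC1 (8.26) and TFF2 (7.82) led and did not differ beyond the spread of their libraries. That tie held for TPM only. By coverage per aligned gigabase TFF2 was at 3.29 and 2.44, above MUC1 at 1.3 and 0.856, and MUC1 overlapped TFF3 at 1.33 and 0.496. TFF3 (2.35) and MUC5AC (1.09) followed, with overlapping libraries. Below them came MUC2 (0.562), MUC5B (0.474), MUC13 (0.324) and MUC17 (0.0425), whose libraries did not overlap by TPM between neighbours in this order. By coverage per aligned gigabase MUC5B (0.175 and 0.065) and MUC13 (0.115 and 0.112) did overlap. The sum of the 6 mucins was 13.3 and 8.23 TPM, and that of the trefoil factors 12.7 and 7.64 TPM, in the same 2 libraries.

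In the test across 13620 protein-coding genes, 7.39% were called higher in UF1hypo shUHRF1 and 1.14% lower, at an adjusted p below 0.05 and a difference above 1 on the log2(TPM + 1) scale. Of the 9 members, 4 entered this test and each was called higher. TFF2, TFF3 and MUC5AC passed the filter only through the knockdown libraries. Such an entry selects for a rise there, so this count says nothing about the family.

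**Figure D2:**
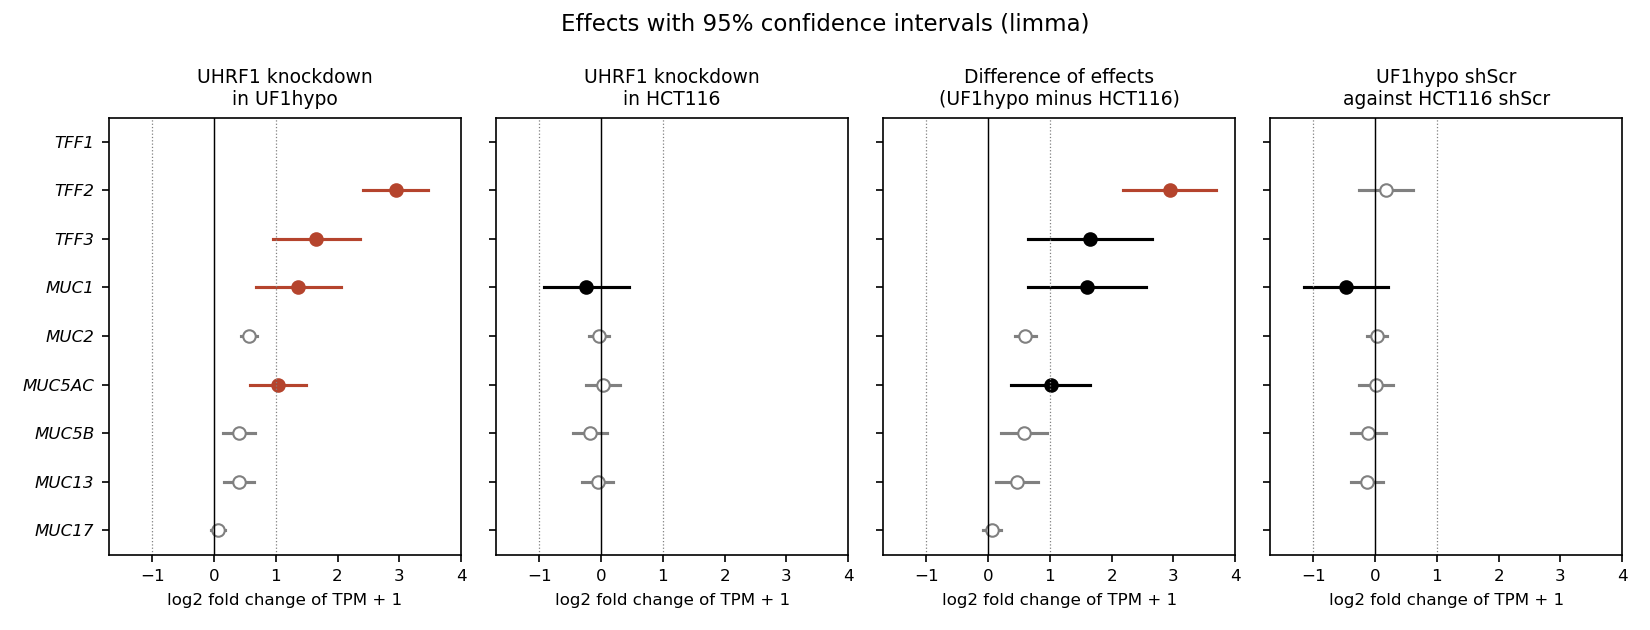
Difference of each member on the log2(TPM + 1) scale in 4 panels (knockdown in UF1hypo, knockdown in HCT116, the difference of these effects, and the control groups of the lines); lines are 95% intervals, red points were called, black points were tested and not called, grey open points come from the fit without a TPM filter, and dotted lines mark the threshold of 1 in either direction. In UF1hypo TFF2 stands highest at 2.94 and MUC17 lowest at 0.06, whereas the HCT116 points lie between -0.24 (MUC1) and 0.03 (MUC5AC).

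In HCT116 cells no member was called after UHRF1 knockdown, against 0.0708% of 12704 genes tested (9 genes by limma; 810 at an unadjusted p below 0.05). MUC1 was the only member tested and differed by -0.24 (SE 0.301, 95% interval -0.92 to 0.45; limma, adjusted p = 1), with means of 3.88 ± 0.626 and 3.13 ± 0.369 TPM in shScr and shUHRF1 (SD, n = 2 each). Both knockdown libraries were below both controls for MUC1, MUC2 and MUC5B and above them for MUC5AC, whereas 25.5% and 19.3% of genes with any TPM above 0 showed those respective orders. Without the TPM filter the differences were -0.03 for MUC2, 0.03 for MUC5AC, -0.18 for MUC5B and -0.06 for MUC13, none of which passed the test in limma. TFF2, TFF3 and MUC17 were listed at 0 with and without the hairpin in this line. The targeted gene UHRF1 was not called in HCT116 either (-1.5, limma, adjusted p = 0.0564). The absence of a call there thus does not show the absence of a change.

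UF1hypo shScr cells, which carry the allele deletion and the control hairpin, had no member called against HCT116 shScr, by limma. MUC1 differed by -0.48 on the log2(TPM + 1) scale (SE 0.3, 95% interval -1.16 to 0.21; limma, adjusted p = 0.45), not past the threshold before adjustment either, and 3.54% of 12856 genes were called in this comparison. TFF2 was the only trefoil factor with a reading in either control group, at 0.286 TPM in UF1hypo shScr replicate 1, and its difference without the TPM filter was 0.18 (limma, adjusted p = 0.697). The interval of MUC1 reached past the threshold of 1 in the lower direction, so these libraries do not limit the MUC1 change to less than that.

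Whether the knockdown acted differently in the 2 lines was tested as an interaction. The difference of the effects (UF1hypo minus HCT116) was 2.94 for TFF2 (SE 0.327, 95% interval 2.19 to 3.69; limma, adjusted p = 0.00208), the only member called, where 4.54% of 13781 genes were called higher. For TFF3 it was 1.65 (SE 0.438; limma, adjusted p = 0.0748), for MUC1 1.60 (SE 0.422; limma, adjusted p = 0.073) and for MUC5AC 1.01 (SE 0.279; limma, adjusted p = 0.0857). For these 3 genes a larger effect in UF1hypo was thus not shown by the main test, although each estimate exceeded 1. Without UF1hypo shUHRF1 replicate 2 the differences were 3.17 for TFF2, 2.17 for TFF3, 1.96 for MUC1 and 1.18 for MUC5AC. Without UF1hypo shUHRF1 replicate 1 they were 2.71 for TFF2, 1.14 for TFF3 and 1.24 for MUC1, and MUC5AC was not tested. Either fit leaves 1 library in that group. The comparison of the lines shares the UF1hypo libraries with the knockdown comparison above and does not add independent samples. TFF2 and TFF3 were at 0 in every HCT116 library and passed the filter only through UF1hypo shUHRF1. Their estimates here therefore repeat their UF1hypo effects.

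The genes next to the members gave a mixed picture. On chromosome 21, ABCG1, a cholesterol transporter 14.4 kb from TFF3, differed by 0.14 in UF1hypo (limma, adjusted p = 0.807), while TMPRSS3, a membrane protease 5.35 kb from TFF1, went from 0 and 0 to 0.358 and 0.356 TPM, below the filter. UMODL1 and UBASH3A, the outer neighbours, were at or below 0.0728 TPM in every library.

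On chromosome 11, MUC6, a gel-forming gastric mucin on the opposite strand 38.2 kb from MUC2, was at 0.00998 and 0.0892 TPM in the UF1hypo controls and 0.607 and 0.135 after knockdown. TOLLIP, an adaptor of Toll-like receptor signalling 12.2 kb from MUC5B, differed by 0.73 (limma, adjusted p = 0.0851), AP2A2, a clathrin adaptor subunit, by 0.20 and BRSK2, a neuronal kinase, by -0.38, none of them called. The cluster of low mucins was thus flanked by expressed genes that did not pass the test.

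On chromosome 7, MUC12, a transmembrane mucin that ends 1.13 kb before MUC17, was at 0.0765 and 0.209 TPM in the UF1hypo controls and 2.76 and 2.19 after knockdown, with both knockdown libraries above all others. MUC12 rose by 1.60 (SE 0.197; limma, adjusted p = 0.00136). MUC3A, a transmembrane mucin on the far side of MUC12, was at 27.1 and 32.8 against 17.0 and 19.2 TPM, a difference of -0.69 that passed the adjusted p (limma, 0.0412) and not the fold threshold. On the other flank, TRIM56, a ubiquitin ligase, differed by 0.99 (limma, adjusted p = 0.007), just short of the threshold.

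MUC1 is flanked by TRIM46 at 0.853 kb, THBS3 at 2.67 kb and MTX1 at 15.8 kb, which differed by -0.44, 0.29 and 0.07 in UF1hypo and were not called. Next to MUC13, ITGB5, an integrin subunit, differed by 0.72 (limma, adjusted p = 0.0672), whereas HEG1, a membrane protein of endothelial junctions 11.9 kb away, rose from 0.924 and 1.13 to 6.76 and 5.18 TPM, or by 1.78 (SE 0.215; limma, adjusted p = 0.00128). UMPS and SLC12A8 lay further out and differed by 0.35 and -0.02.

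**Figure D3:**
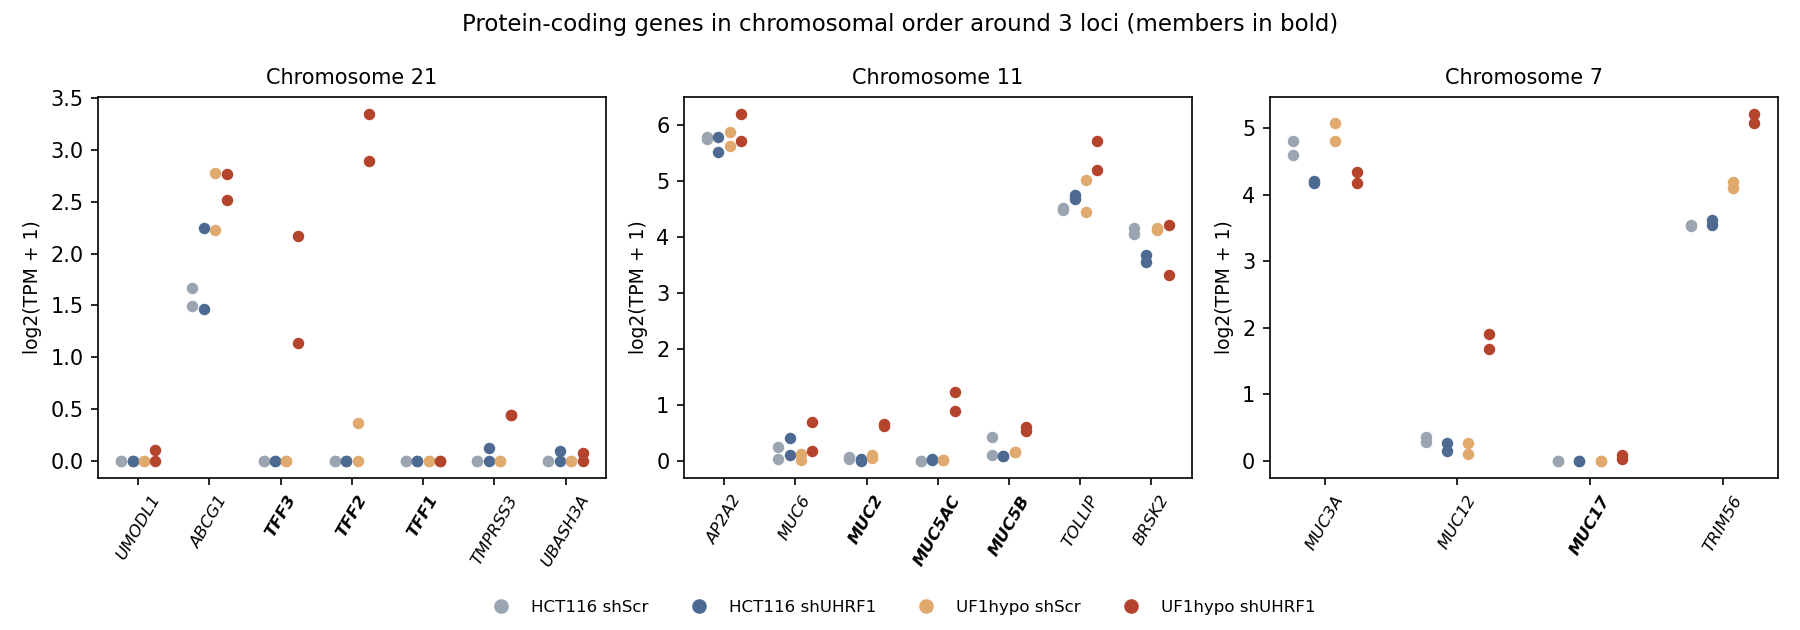
Level on the log2(TPM + 1) scale of the genes around the members on chromosomes 21, 11 and 7, in chromosomal order and not to distance, with members in bold; each point is a library, coloured by group. The UF1hypo shUHRF1 points stand apart at TFF3, TFF2, MUC5AC and MUC12, and also lie above all others at the neighbours TOLLIP and TRIM56. The UF1hypo groups overlap at ABCG1 and AP2A2.

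Of 15 other mucins and mucin-like genes, 5 were tested in UF1hypo, 3 rose and none fell. MUC4 and MUC12 passed the TPM filter only through the knockdown libraries, which selects for a rise, so the count says nothing about the list. Of the other 3 genes tested 1 rose (MUC20). MUC4, a transmembrane mucin that binds ERBB2, was between 0.212 and 0.279 TPM in the HCT116 libraries, at 0.465 and 0.527 in UF1hypo shScr, and at 5.8 and 4.11 in UF1hypo shUHRF1. It rose by 1.98 (SE 0.21; limma, adjusted p = 0.000629), and the difference from HCT116 was 2.02 (limma, adjusted p = 0.00803). MUC20, a small transmembrane mucin with near-identical copies in the genome whose reads may be shared, rose by 2.00 (SE 0.413; limma, adjusted p = 0.0156), with 1.62 and 2.2 TPM before and 11.3 and 9.88 after knockdown. MUC3A differed by -0.69 (limma, adjusted p = 0.0412), short of the fold threshold, and the oviductal glycoprotein OVGP1 by -0.17. Neither was called.

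Of 17 secretory products and markers of goblet cells, 9 were tested, 2 rose and none fell, where 7.39% of all genes tested were called higher. RETNLB and BEST2 passed the filter only through the knockdown libraries, which selects for a rise. Of the other 7 genes tested 1 rose (TSPAN1). RETNLB, a resistin-like peptide of colonic goblet cells, was listed at 0 in 6 libraries and at 2.21 and 1.5 TPM in UF1hypo shUHRF1, a rise of 1.5 (SE 0.2; limma, adjusted p = 0.00205). TSPAN1, a tetraspanin found on secretory epithelium, was at 30.6 and 35.1 TPM in the UF1hypo controls and at 81.2 and 72.2 after knockdown, a rise of 1.2 (SE 0.22; limma, adjusted p = 0.00902), and was already 2.49 higher in UF1hypo shScr than in HCT116 shScr (limma, adjusted p = 0.000388). The disulfide isomerase AGR2, needed to fold MUC2, was at 0 in both UF1hypo shUHRF1 libraries, as was the goblet protease CLCA1, while SPINK4, ZG16 and ITLN1 did not exceed 0.289 TPM. FCGBP, which is cross-linked in the mucus gel, was between 1.21 and 3.26 TPM in all libraries and differed by 0.49 (limma, adjusted p = 0.274).

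Of 23 transcription factors of secretory and gut lineages, 18 were tested, 6 rose and 1 fell. Of the 6, GATA4, GATA5, CREB3L1, HNF4A and ESR1 passed the filter only through the UF1hypo knockdown libraries, which selects for a rise. SPDEF entered in the same way and was not called. Of the 12 genes that were above 1 TPM in a UF1hypo control 1 rose (GATA6). The zinc-finger factors GATA5 and GATA4, which act in gastric and intestinal epithelium and are also on the study's own list, rose by 2.33 (SE 0.273; limma, adjusted p = 0.0011) and 1.92 (SE 0.19; limma, adjusted p = 0.000434). CREB3L1, a factor of secretory cells, was at 0.768 and 0.673 TPM before and 6.72 and 5.36 after knockdown and rose by 2.03 (limma, adjusted p = 0.0052). HNF4A, a hepatic and intestinal factor, was 6.81 to 8.43 TPM in HCT116, lower in UF1hypo shScr at 0.313 and 0.0545 TPM (-2.74 against HCT116 shScr; limma, adjusted p = 0.000979) and at 2.67 and 1.2 TPM after knockdown there, a rise of 1.27 that stayed below every HCT116 library. GATA6 rose by 1.24 and the oestrogen receptor ESR1, a known activator of TFF1, by 1.06, whereas TFF1 itself stayed at 0. ELF3, an epithelial ETS factor, fell by 1.32 on the log2(TPM + 1) scale (limma, adjusted p = 0.00253). ATOH1, which commits cells to the secretory lineage, was at 0 in both UF1hypo shUHRF1 libraries, and SPDEF, which drives goblet cell maturation, was at 1.24 and 0.125 TPM with a difference of -0.02.

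Of 30 enzymes that build the O-linked sugars of mucins, 26 were tested and 1 rose, with a median of -0.01 beside 0.04 over all genes. That enzyme was GALNT5, which attaches the first sugar, at 7.43 and 5.89 TPM in the UF1hypo controls and 22.7 and 37.9 after knockdown (2.00, SE 0.275; limma, adjusted p = 0.00244). GALNT12 and GALNT18, which also attach the first sugar, differed by -0.86 and -0.81 and passed the adjusted p (limma, 0.035 and 0.0309) but not the fold threshold. The core enzyme C1GALT1 and its chaperone C1GALT1C1 differed by -0.58 and -0.19 and were not called. Of 7 partners and proposed receptors of trefoil factors, 3 were tested, 1 had an unadjusted p below 0.05 and none was called by limma. CXCR4, the chemokine receptor proposed for TFF2, was at 1.23 and 0.349 TPM in UF1hypo shUHRF1, and the protease receptor F2RL1 stood at 176 to 229 TPM in all libraries.

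Markers of other epithelial types showed no common direction. Of 17 gastric markers, 4 were tested: the hormone GAST, above 1 TPM only in the knockdown libraries of UF1hypo, rose by 1.01 (limma, adjusted p = 0.0423) and the annexin ANXA10 fell by 2.8 on the log2(TPM + 1) scale, from 62.5 and 70.2 to 6.42 and 11.5 TPM (limma, adjusted p = 0.000239), while the stomach-defining GKN1 and GKN2 were at 0 in every library. Of 13 colonic markers, 7 were tested and KRT20, a keratin of differentiated colonocytes, rose by 3.18 (limma, adjusted p = 7.51e-05), from 9.28 and 9.06 to 75 and 111 TPM. Of 14 enterocyte markers the peptidase ANPEP, also above 1 TPM only there, alone rose, by 1.12 (limma, adjusted p = 0.0164), of 11 enteroendocrine markers SCG2 alone fell, by 1.83 (limma, adjusted p = 0.00338), and of 10 Paneth and stem cell markers the single gene tested was not called. In HCT116 none of the 66 genes of these lists that were tested was called by limma, and 10 had an unadjusted p below 0.05.

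Among 15 markers of leukocytes, stroma and endothelium, 2 were tested and 1 rose, the lysosomal protein CD68 (1.11; limma, adjusted p = 0.00838). Their summed TPM was 35.7 to 36.9 in HCT116 shScr, 30.2 to 33.8 in HCT116 shUHRF1, 63.5 to 71.6 in UF1hypo shScr and 117 to 175 in UF1hypo shUHRF1. CD68 (107 and 77.7 TPM) was the larger part in UF1hypo shUHRF1, and the collagen COL1A1, the other gene tested, went from 22.5 and 28.5 to 65.5 and 37.7 TPM in UF1hypo (0.94; limma, adjusted p = 0.0518). The leukocyte marker PTPRC was at 0.0561 and 0.0728 TPM in UF1hypo shUHRF1 and at 0 elsewhere. The summed goblet cell list was 380 to 398, 363 to 379, 1200 to 1370 and 1770 to 2970 TPM in the same order of groups, and most of it was the galectin-binding protein LGALS3BP (2860 and 1650 TPM in UF1hypo shUHRF1). The part that any such shift has in the members' values was not tested.

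**Figure D4:**
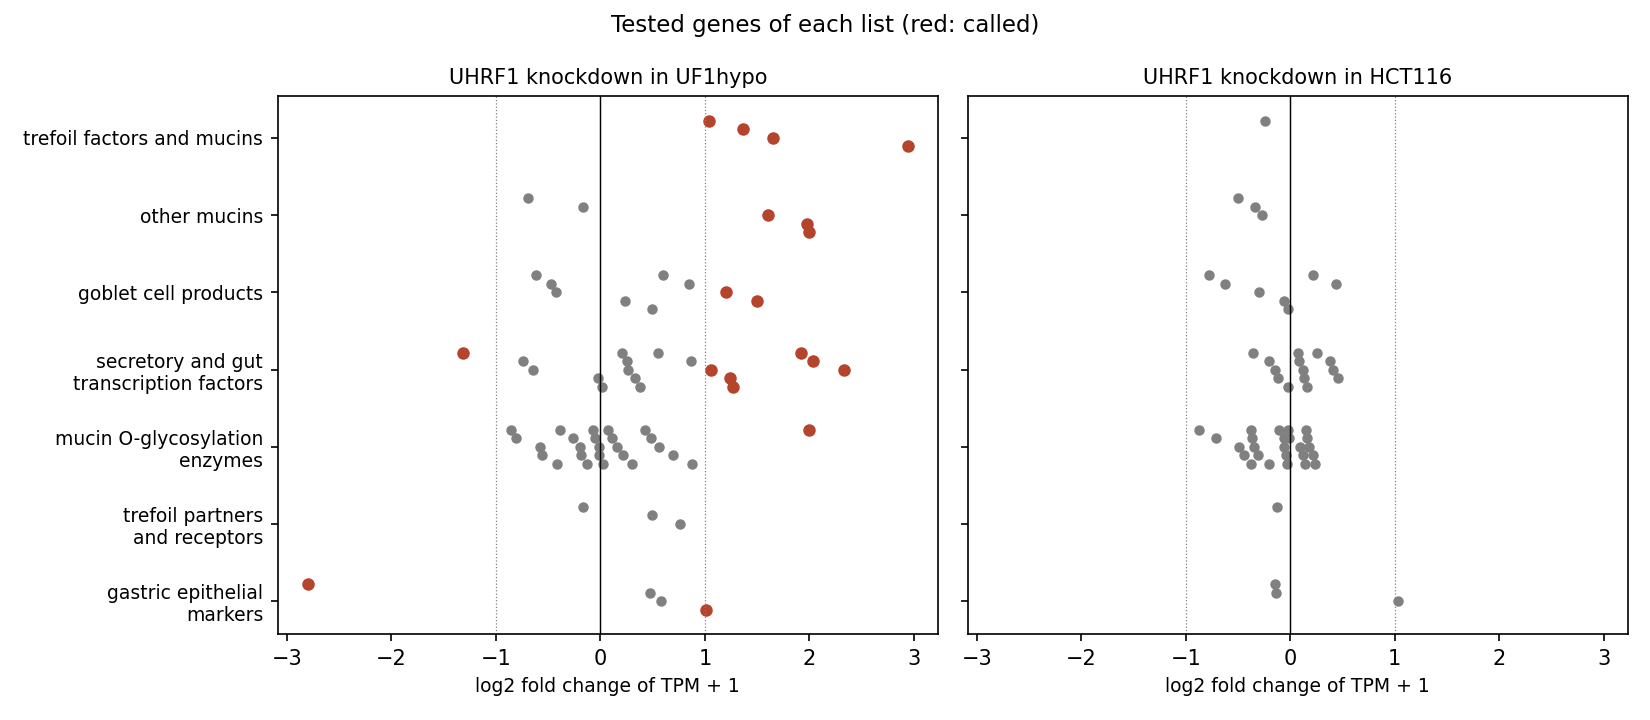
Difference on the log2(TPM + 1) scale of the tested genes of 7 gene lists after UHRF1 knockdown in UF1hypo and in HCT116; each point is a gene and red points were called. In UF1hypo, called genes stand on the right among members, other mucins and transcription factors, the O-glycosylation enzymes lie on both sides of 0 with GALNT5 alone called, and HCT116 has no red point.

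The genes whose levels followed the members most closely across the 8 libraries came from varied families. For TFF2, Pearson's r of log2(TPM + 1) was 0.9986 with NACAD, 0.9984 with the endothelial receptor ROBO4 and 0.998 with the interferon IFNL1, and 534 of 13289 genes exceeded 0.95. TFF2 did not exceed 0.286 TPM outside UF1hypo shUHRF1, so its r rests mainly on the 2 libraries of that group. For TFF3, listed at 0 in 6 libraries so that r rests on the other 2, the nearest were the phosphatase inhibitor PPP1R14A (r of 1.0), PDZK1IP1 (0.9998) and THEG (0.9988). With TFF3, 370 genes exceeded 0.95. For MUC1, the nearest were the claudin CLDN23 (0.9872), RRP12 and SHROOM1 (0.9864 each), and only 29 genes exceeded 0.95. Between members, r was 0.9625 for TFF2 and TFF3, 0.8474 for TFF2 and MUC1 and 0.9134 for TFF3 and MUC1; all of these are descriptions over 8 libraries that share their groups and depth.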

How the data were processed

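The authors trimmed the reads, aligned them with HISAT2 (version 2.0.4 in the submitters' processing notes) to GRCh38 and assembled abundances with StringTie (2.1.4). Each of the 8 deposited files lists coverage, FPKM and TPM per gene; the authors normalized TPM and FPKM by length and library, and the deposited coverage is reads per base, unscaled. No counts were used, so DESeq2, the study's tool, was not run. TPM of repeated records of a gene identifier were summed. GENCODE 44 held 60507 of 60649 identifiers, 19960 of them protein-coding.

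Groups came from the labels. limma 3.58.1 (R 4.3.3) was fitted to log2(TPM + 1) over all 8 libraries with 4 group means (4 residual degrees of freedom) and trended variances, on protein-coding genes above 1 TPM in at least 1 library of the comparison. A gene was called at a Benjamini-Hochberg adjusted p below 0.05 and an absolute difference above 1. An exact permutation test of 2 against 2 libraries cannot go below p of 0.33. The depth in aligned gigabases was recovered from the ratio of FPKM to coverage, and coverage per gigabase used it. The fit on coverage instead scaled each library to the same total.

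Named genes were the members, UHRF1, up to 3 called genes in each direction of each list, the 2 nearest protein-coding genes on each side of a member (1 of them is not reported here), and the 3 genes most correlated with each member above 1 TPM in at least 2 libraries; other genes named from the lists were chosen after their values were seen. The members and lists were chosen with earlier results of these data known. Same-numbered libraries did not deviate together (r of -0.402 to 0.055), so numbers were not used as pairs. Alternatives covered pseudocount, filter, scaling, unit, block, weights, G+C content and each library left out. Scripts were tested on simulated data.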

Additional observations from a re-analysis of the deposited data

Results flagged for a closer look

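TFF2 was marked because the test of the difference between the lines passed (limma, adjusted p = 0.00208). Its knockdown effect was 2.94 larger on the log2(TPM + 1) scale in UF1hypo than in HCT116, where TFF2 was at 0 in all 4 libraries. TFF2 passed the TPM filter only through UF1hypo shUHRF1, so this value repeats its effect in UF1hypo and is no separate evidence.

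MUC1, MUC2 and MUC5B were marked because both shUHRF1 libraries lay above both shScr libraries in UF1hypo and below them in HCT116. The differences of the effects were 1.6, 0.6 and 0.58 on the log2(TPM + 1) scale. In the limma fit without a TPM filter their adjusted p-values were 0.118, 0.00788 and 0.104, and MUC2 did not reach the fold threshold. Each MUC2 and MUC5B value was below 1 TPM in all libraries. In HCT116 the order rested on 0.0201 against 0.0189 TPM for MUC2 and on 0.0675 against 0.0634 TPM for MUC5B, the nearest shScr and shUHRF1 libraries. Among genes with any TPM above 0, 31.4% showed the UF1hypo order and 25.5% the HCT116 order. The share with both orders was not computed, so an opposite response is not shown.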

How the results depend on the processing

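TFF2 kept its call in UF1hypo under all 23 alternatives (2.01 to 5.31) and in the difference between the lines under all 21 (adjusted p up to 0.0281, limma); no difference changed sign. TFF3 lost its call in UF1hypo under 4 alternatives, MUC1 under 5 and MUC5AC under 7 of the 21 that tested it. The main 4 called members became 1 with only the 4 libraries of the comparison, 2 with FPKM, 2 with quantile normalization, 2 with library weights, and 1 to 4 with a library left out (1 without UF1hypo shScr replicate 1, 2 without replicate 2); coverage in place of TPM, added after seeing the data, gave 3. For the difference, the main 1 became 2 with a pseudocount of 0.1, 2 with no TPM filter, 3 with coverage, 3 with the G+C and length correction, and 1 to 4 with a library left out. No member was called in HCT116 or between the control groups under any alternative. TFF2 was at 0 in every HCT116 library, so in the main fit its difference between the lines repeats its UF1hypo effect. The cause of the changes between alternatives was not tested.

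The 1162 genes called in UF1hypo became 563 with only 4 libraries, 749 with FPKM, 539 with weights and 655 (without UF1hypo shScr replicate 1) to 2255 (without UF1hypo shUHRF1 replicate 2) with a library left out. The 9 in HCT116 became 30 (pseudocount of 0.1), 2 (no filter), 3 (all annotated genes), 89 (only 4 libraries), 3 (median-ratio scaling), 5 (no trend), 19 (coverage), 101 (weights), 74 (G+C) and 0 to 100 with a library left out. The 702 of the difference became 448 (pseudocount), 419 (weights), 1055 (G+C) and 171 to 2142; the 455 between control groups were 149 to 594 with a library left out and up to 598 (weights) otherwise. The higher and lower calls in UF1hypo, 1007 and 155, were 681 and 289 after quantile normalization, which moved the median of all genes from 0.039 to -0.064; those of the difference, 625 and 77, were 357 and 112 (median 0.076 to -0.061) and 810 and 245 with the G+C correction. With a replicate block, 4 members and 1110 genes were called in UF1hypo, 1 gene in HCT116, 1 member and 471 genes in the difference and 369 genes between control groups; crossing the numbers, added after seeing the data, gave 1207 genes in UF1hypo. Depth limits MUC2, MUC5B, MUC13 and MUC17, whose readings stay below 1 TPM.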
